A study of Mus musculus with 9 samples.

Results

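Cardiac fibroblasts are the stromal cells that make and maintain the collagen scaffold of the heart. After an infarct, resident fibroblasts that carry the transcription factor TCF21 are activated by cytokines and stretch, divide, secrete matrix and in part become contractile myofibroblasts, and later settle into a quieter state in the scar. The genes described here mark steps along that path. Tcf21 and Ddr2, which encodes a collagen-binding receptor tyrosine kinase, mark the resident lineage, as does Pdgfra, the receptor for platelet-derived growth factors. Thy1 encodes a surface glycoprotein of fibroblasts that T cells and neurons also carry. Dpt and Pi16 are typical of resting matrix-producing and adventitial fibroblasts, Meox1, Fap and Cthrc1 of activated ones, and Wif1, an inhibitor of Wnt ligands, of a smaller fibroblast state.

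The members were these 10 named genes, each read from the brightest row of the value table that the array annotation gives to its symbol. Of the 10, 9 had such a row, 1 row each, among 19505 genes tested, and all 9 are reported with no filter on low values. Pdgfra was not analysed here.

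RNA came from the peri-infarct region, the myocardium next to the scar, of female SCID mice 80 to 100 days old per the labels, 4 weeks after ligation of the left anterior descending coronary artery. SCID mice lack working T and B lymphocytes, and all groups shared this background and the infarct. The groups, with 3 arrays each, had received saline, cardiomyocytes grown from induced pluripotent stem cells (iCM), or the small secreted vesicles called exosomes that were precipitated from iCMs (iCM-Ex). The labels call the replicates biological, and neither the species of the injected cells nor their survival in the host is given in the sources used here. In bulk tissue fewer fibroblasts and less RNA per fibroblast cannot be told apart.

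All values below are log2 signals, so a difference of 1 is a doubling on the array's scale. Cardiomyocyte markers were bright on every array, with list means of 16.26 to 18.06. The mean of 7 T and B lymphocyte markers was 3.99 to 4.46, below the median negative control probe set of each array (4.76 to 5.56). Markers of other tissues stood out on 3 arrays. Over 11 lung epithelial markers iCM replicate 1 averaged 12.06 and iCM-Ex replicate 3 averaged 8.87, against 4.75 to 6.19 on the other 7. These 2 are the arrays with lung markers named below. Of the 7, iCM replicate 2 had the highest mean. There Sftpc read 11.02 and Sftpa1 6.97, against 4.82 to 6.83 and 3.75 to 5.05 on the rest, while Sftpb (4.93) and Scgb1a1 (4.20) were not raised. The mean of 9 fast skeletal muscle markers was 12.88 in iCM replicate 2 against 4.70 to 5.96 elsewhere, and 6 fat markers averaged 8.65 there against 3.69 to 5.37. Lung and fat contain fibroblasts of their own.

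The fibroblast genes were lower on part of the iCM arrays than in hearts given saline or exosomes. Tcf21, Dpt, Meox1 and Cthrc1 were low on iCM replicates 2 and 3, while iCM replicate 1 lay within the range of the saline arrays. Mean differences of these 4 genes between iCM-Ex and iCM were 2.07 to 2.84 log2 units. Pi16 and Wif1 did not share this order, and Ddr2 had lower means than saline in both treated groups. None of these differences passed the test over all genes in the fit of all arrays with the signals as deposited. With all arrays kept, Cthrc1 passed it narrowly between iCM and saline under 2 other settings given below. Without iCM replicate 1, Cthrc1, Meox1 and Dpt passed between iCM and saline, and the same genes and Tcf21 passed between iCM-Ex and iCM. Leaving out any other single array gave no call. Without both arrays that carry lung markers, a choice made after the data were seen, Cthrc1 and Meox1 passed between iCM and saline.

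**Figure D1:**
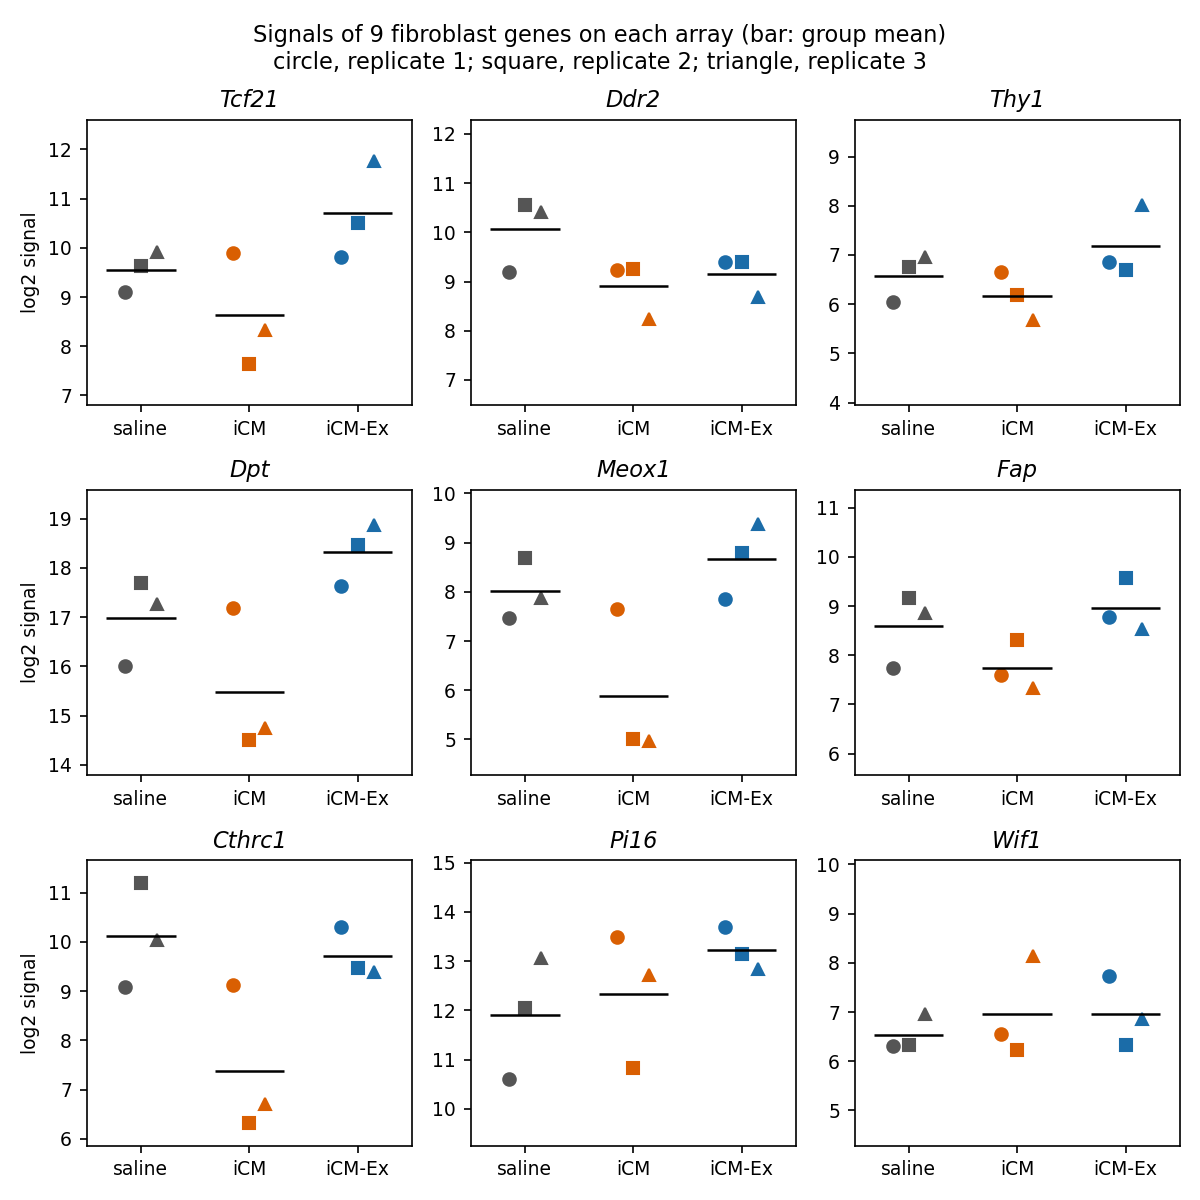
Log2 signal (vertical axis, the same span of log2 units in every panel) of the 9 genes in the saline, iCM and iCM-Ex arrays; each point is 1 array and each bar a group mean. In Cthrc1, Dpt, Meox1 and Tcf21 the iCM replicates 2 and 3 lie below the other 7 arrays, and iCM replicate 1 lies within the range of the saline arrays.

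With the signals as deposited, no member passed the threshold of the test across all genes (limma, Benjamini-Hochberg adjusted p under 0.05) in any of the 3 comparisons. Of all genes, the same fit called 3.67% for iCM against saline, 0.349% for iCM-Ex against saline and 1.07% for iCM-Ex against iCM. For 4 of the 9, Tcf21, Dpt, Meox1 and Cthrc1, iCM replicates 2 and 3 held the 2 lowest of the 9 signals, a pattern that 5.58% of all genes showed. This pattern was singled out after the values were seen, and it is a description. The 3 comparisons share their arrays, so their values stand side by side and do not support each other.

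Tcf21, the basic helix-loop-helix factor of the resident lineage, had signals of 9.10, 9.64 and 9.92 in saline, 9.90, 7.64 and 8.34 in iCM and 9.82, 10.50 and 11.77 in iCM-Ex. Its highest signal was on iCM-Ex replicate 3, an array with lung markers, and iCM replicate 1, the other such array, was the highest of its group. The iCM-Ex mean exceeded the iCM mean by 2.07 ± 0.61 (SE; limma adjusted p = 0.139), and the 2 groups overlapped by a narrow margin. The differences from saline were -0.93 ± 0.61 in iCM (limma adjusted p = 0.429) and 1.15 ± 0.61 in iCM-Ex (limma adjusted p = 0.414). Without iCM-Ex replicate 3 the Tcf21 difference of iCM-Ex was 0.61 from saline and 1.54 from iCM. Lung mesenchyme is a known site of Tcf21 expression, and the part of lung tissue in these values was not tested.

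Dpt encodes dermatopontin, a small matrix protein that binds decorin and helps collagen fibrils assemble. It read 16.01, 17.70 and 17.26 in saline, 17.18, 14.50 and 14.74 in iCM and 17.63, 18.46 and 18.87 in iCM-Ex, all below the highest signal on the arrays of 19.93. The iCM-Ex arrays were all above the iCM arrays, with a mean difference of 2.84 ± 0.70 (SE; interval 1.29 to 4.40, limma adjusted p = 0.0869), the largest of any member in that comparison. Against saline, iCM was lower by 1.52 ± 0.70 (limma adjusted p = 0.255) and iCM-Ex higher by 1.33 ± 0.70 (limma adjusted p = 0.408). The arrays overlapped in both comparisons. As for Tcf21, the arrays with lung markers held the highest Dpt signal of the iCM-Ex group and of the iCM group. Without iCM-Ex replicate 3 the Dpt difference of iCM-Ex was 1.05 from saline and 2.57 from iCM.

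The promoter windows of 2 genes with like profiles over the arrays, Dpt and Tcf21, and of Pi16, whose profile was farther from both, are shown because TCF21 binds the E-box CAGCTG. Each window holds the 250 bases before an annotated start, 5′ to 3′ on the gene's strand, from RefSeq on GRCm38.p6. Capitals mark CAGCTG.
Dpt, chr1:164796413-164796662, plus strand: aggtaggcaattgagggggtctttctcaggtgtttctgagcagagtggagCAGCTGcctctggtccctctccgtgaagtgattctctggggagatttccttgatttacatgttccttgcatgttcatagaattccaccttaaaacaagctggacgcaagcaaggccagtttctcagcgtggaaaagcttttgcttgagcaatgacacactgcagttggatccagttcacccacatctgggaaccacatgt
Tcf21, chr10:22820144-22820393, minus strand: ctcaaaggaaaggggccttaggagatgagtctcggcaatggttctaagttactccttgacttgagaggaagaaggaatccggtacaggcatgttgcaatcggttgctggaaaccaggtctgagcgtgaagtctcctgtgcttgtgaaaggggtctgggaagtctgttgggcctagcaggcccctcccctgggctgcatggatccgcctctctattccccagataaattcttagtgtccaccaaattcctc
Pi16, chr17:29318632-29318881, plus strand: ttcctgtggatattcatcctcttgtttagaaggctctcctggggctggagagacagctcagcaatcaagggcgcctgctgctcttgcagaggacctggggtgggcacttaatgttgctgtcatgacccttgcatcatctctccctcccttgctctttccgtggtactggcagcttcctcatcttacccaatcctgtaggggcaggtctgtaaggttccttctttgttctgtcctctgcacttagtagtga
In the Dpt window CAGCTG, which reads the same on both strands, begins 200 bases before the start, and the other windows shown do not hold it. Of 6 windows found for 6 of the 10 members (Pdgfra, Tcf21, Ddr2, Dpt, Pi16 and Wif1) 1 held it, as did 13% of 32851 windows of this length. The TEAD motif CATTCC and the SMAD motif GTCTAGAC, searched on both strands, were in none of the 6, against 12.6% and 0.167% of all windows. A match describes letters in these windows and shows no binding.

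Ddr2 read 9.20, 10.55 and 10.42 in saline, 9.24, 9.26 and 8.23 in iCM and 9.39, 9.40 and 8.68 in iCM-Ex. It was the member whose means in both treated groups lay below saline by nearly the same amount, by 1.14 ± 0.44 in iCM (SE; limma adjusted p = 0.171) and by 0.90 ± 0.44 in iCM-Ex (limma adjusted p = 0.368). Saline replicate 1 lay among the treated arrays, so neither group separated from saline. Between iCM-Ex and iCM the difference was 0.25, with an interval of -0.73 to 1.22.

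Thy1 was dim, at 6.05, 6.75 and 6.95 in saline, 6.65, 6.19 and 5.68 in iCM and 6.85, 6.70 and 8.02 in iCM-Ex. Between 5.3% and 40.8% of negative control probe sets were at least as bright. The iCM-Ex arrays lay above the iCM arrays by a mean of 1.02 ± 0.42 (SE; limma adjusted p = 0.300), with the nearest pair of arrays 6.70 and 6.65, and the highest value was again on iCM-Ex replicate 3. Without that array the Thy1 difference of iCM-Ex was 0.60 from iCM and 0.19 from saline.

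Meox1 encodes a homeobox transcription factor that is induced as fibroblasts are activated. Its signals were 7.47, 8.69 and 7.88 in saline, 7.66, 5.0 and 4.97 in iCM and 7.85, 8.78 and 9.37 in iCM-Ex. The iCM arrays were split, and every iCM-Ex array lay above every iCM array. The iCM mean was lower than saline by 2.13 ± 0.70 (SE; limma adjusted p = 0.117) and lower than iCM-Ex by 2.79 ± 0.70 (limma adjusted p = 0.0901). The arrays with lung markers again held the highest signal of the iCM-Ex group and of the iCM group. Without iCM-Ex replicate 3 the Meox1 difference of iCM-Ex was 0.30 from saline and 2.44 from iCM. In iCM replicates 2 and 3, 61.9% and 56.7% of the negative control probe sets were at least as bright as Meox1, against 2.9% to 10.6% on the other 7 arrays, so its signal there lay at background and the size of the difference is uncertain.

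Fap encodes a surface protease of activated fibroblasts. Its signals were 7.75, 9.16 and 8.85 in saline, 7.59, 8.32 and 7.34 in iCM and 8.78, 9.58 and 8.53 in iCM-Ex. All iCM-Ex arrays lay above all iCM arrays, by a mean of 1.21 ± 0.44 (SE; limma adjusted p = 0.230), and both groups overlapped with saline. Its iCM mean was 0.83 below saline (limma adjusted p = 0.319), and within the iCM group replicate 2 was the highest, unlike in Tcf21, Dpt, Meox1 and Cthrc1.

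Cthrc1 encodes a secreted collagen triple helix repeat protein made by activated fibroblasts in the healing infarct. Its signal was 9.08, 11.20 and 10.04 on the saline arrays, 9.12, 6.32 and 6.70 on the iCM arrays and 10.30, 9.46 and 9.39 on the iCM-Ex arrays. The iCM replicates 2 and 3 were the lowest, and iCM replicate 1 lay just above the dimmest saline array, so that iCM lay apart from iCM-Ex but not from saline. The mean was 2.73 lower in iCM than in saline (7.38 ± 1.52 against 10.11 ± 1.06, SD, n = 3; SE 0.73, 95% interval -4.35 to -1.11, limma adjusted p = 0.0679). Relative to iCM, iCM-Ex was higher by 2.34 ± 0.73 (SE; limma adjusted p = 0.157). Between iCM-Ex and saline the difference was -0.39 ± 0.73, with an interval of -2.01 to 1.23 that includes changes of either sign. On iCM replicates 2 and 3, 34.7% and 21.7% of the negative control probe sets were at least as bright as Cthrc1, so its low signals there lay near background.

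Pi16 and Wif1 did not share this pattern. Pi16, which encodes a secreted peptidase inhibitor of adventitial fibroblasts, read 10.61, 12.05 and 13.07 in saline, 13.49, 10.82 and 12.72 in iCM and 13.69, 13.14 and 12.83 in iCM-Ex. Its spread among the saline arrays, from 10.61 to 13.07, was larger than its differences between group means, which were 0.43 ± 0.72 for iCM (SE; limma adjusted p = 0.785) and 1.31 ± 0.72 for iCM-Ex (limma adjusted p = 0.429) relative to saline. Wif1 read 6.30, 6.33 and 6.95 in saline, 6.56, 6.23 and 8.14 in iCM and 7.74, 6.33 and 6.85 in iCM-Ex. Single arrays, iCM replicate 3 and iCM-Ex replicate 1, were highest in their groups, and the mean was 6.97 in both treated groups, with an interval of -1.16 to 1.16 for their difference.

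**Figure D2:**
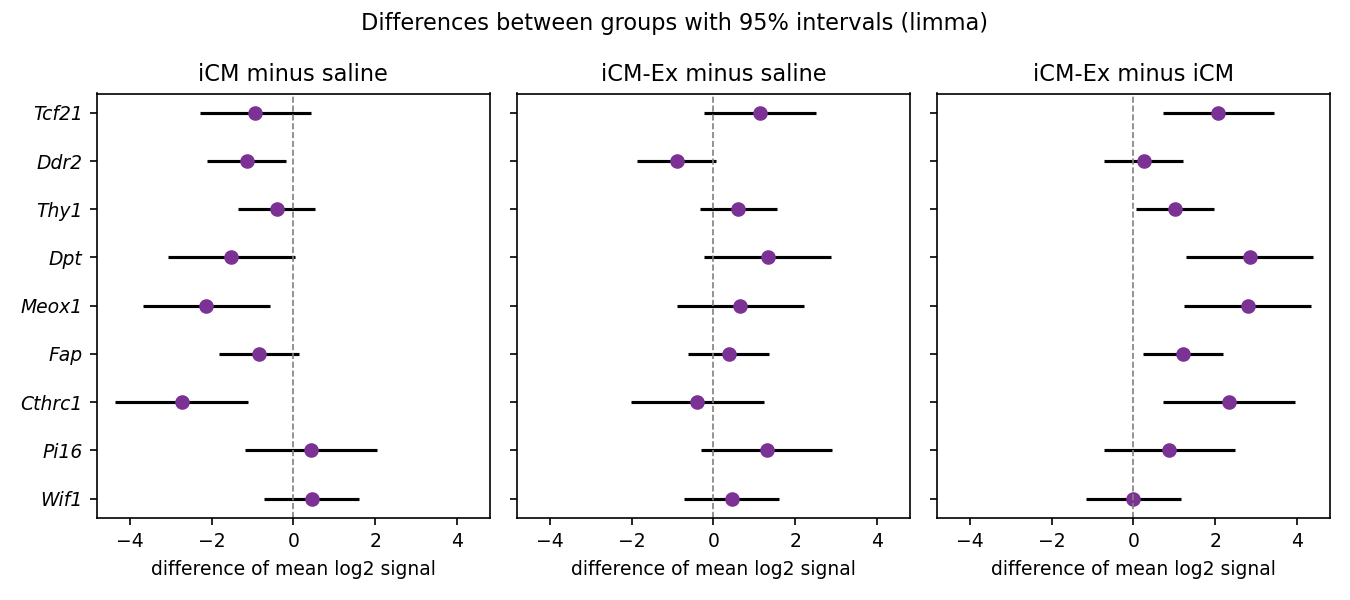
Difference of mean log2 signal (horizontal axis) for each gene in the 3 comparisons, with 95% intervals from the limma fit over all 9 arrays. Intervals lie below 0 for Ddr2, Meox1 and Cthrc1 between iCM and saline and above 0 for 6 genes between iCM-Ex and iCM, without adjustment for the number of genes; none passed the adjusted threshold.

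Counted over the 9 members, 7 had a lower mean in iCM than in saline, as did 44.5% of all genes, with a median difference of -0.93 against 0.08 over all genes. At an unadjusted limma p under 0.05, 3 were lower (Ddr2, Meox1 and Cthrc1) and 0 were higher, where 9.97% of all genes were lower. Arrays of iCM and saline did not overlap for 0 members in the lower direction, where 10.2% of all genes were apart. For the 4 genes with the split, iCM replicate 1 joined the ranges.

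In iCM-Ex against iCM, 8 members had a higher mean, as did 46.1% of all genes, with a median of 1.21 against -0.04 over all genes. At an unadjusted limma p under 0.05, 6 were higher (Tcf21, Thy1, Dpt, Meox1, Fap and Cthrc1) and 0 lower, where 8.39% of all genes were higher. For 5 of the 9 (Thy1, Dpt, Meox1, Fap and Cthrc1) every iCM-Ex array lay above every iCM array, and 10.2% of all genes did so. Dpt and Meox1 had the largest differences of the 9, and Wif1 the smallest.

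In iCM-Ex against saline, 7 members had a higher mean, as did 53.5% of all genes, with a median of 0.61 against 0.04 over all genes. No member reached an unadjusted limma p under 0.05 in either direction, where 8.33% of all genes were higher and 6.91% lower. A lower mean was seen for Ddr2 and Cthrc1.

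**Figure D3:**
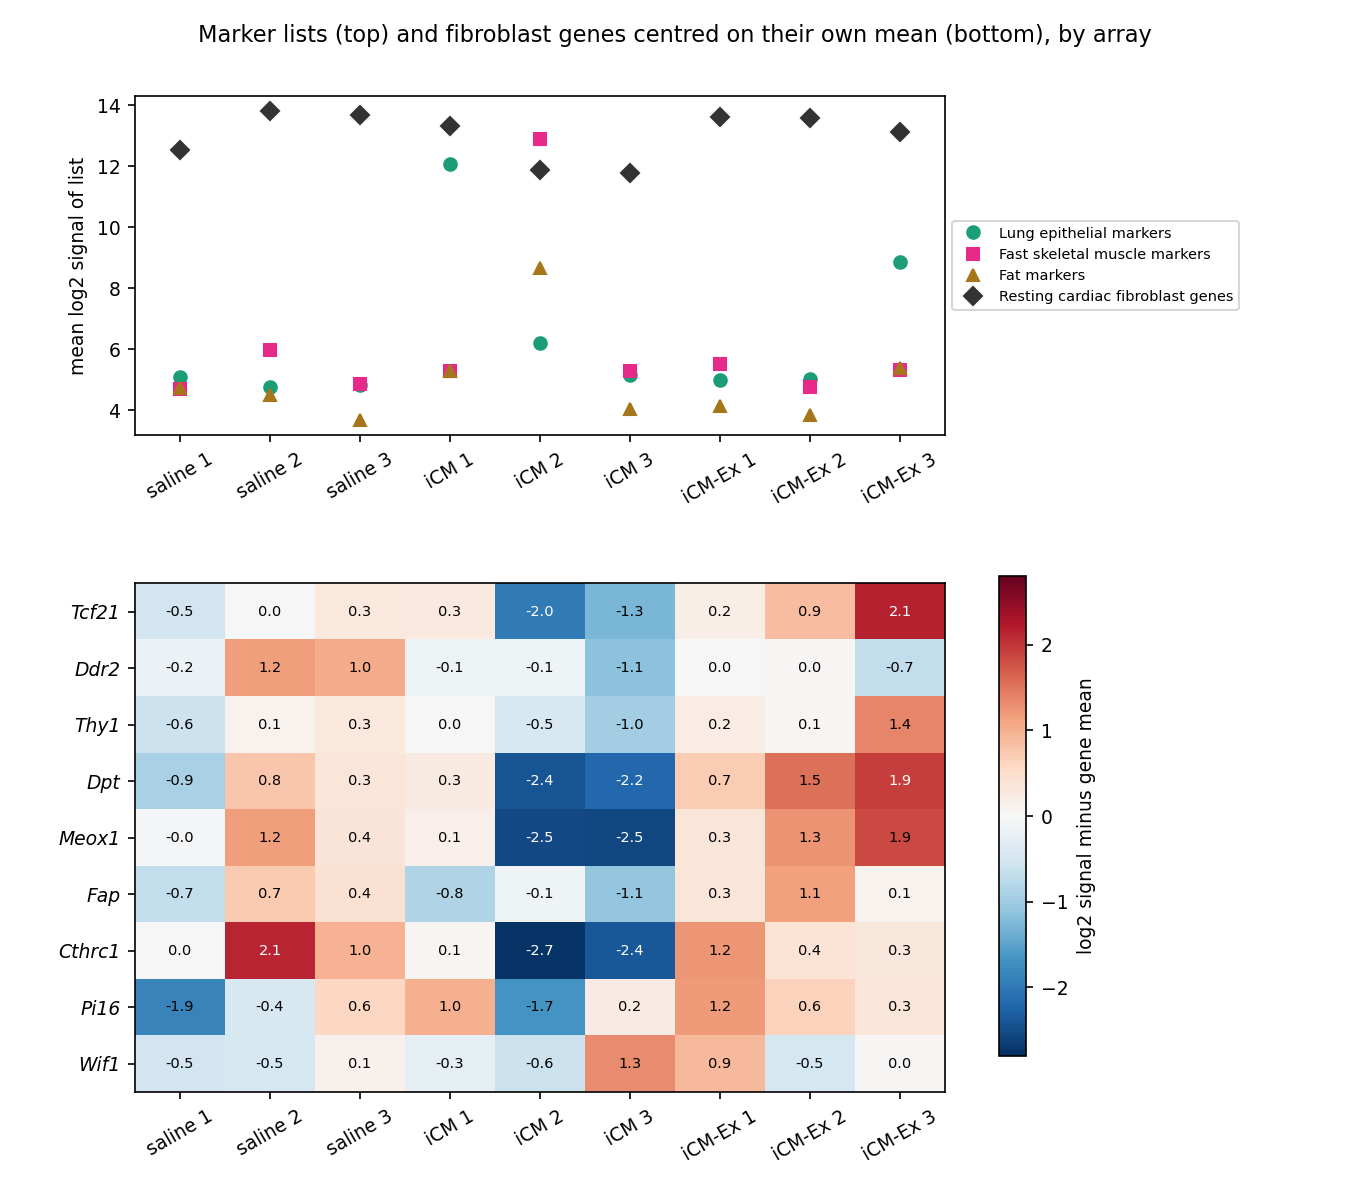
Top, mean log2 signal of 4 gene lists on each array; bottom, log2 signal of each gene minus its own mean over the 9 arrays (numbers and colour), with arrays in columns. iCM replicate 1 reaches 12.06 and iCM-Ex replicate 3 reaches 8.87 over lung markers, iCM replicate 2 reaches 12.88 over muscle markers, and the fibroblast genes with low values in iCM replicates 2 and 3 are near their mean in iCM replicate 1.

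With all 9 arrays, Cthrc1 passed between iCM and saline after each array was centred on its median gene (limma adjusted p = 0.0479, where 4.58% of all genes passed) and when only the 9752 genes brighter than the median were tested (0.0453, where 7.76% passed). Without iCM replicate 1, 3 members passed that comparison, where 4.12% of all genes did. Cthrc1 was then lower by 3.60 (limma adjusted p = 0.0147), Meox1 by 3.02 (0.0162) and Dpt by 2.37 (0.0433). In the same fit 4 members passed between iCM-Ex and iCM, where 1.93% of all genes did, with Dpt higher by 3.69 (limma adjusted p = 0.0188), Meox1 by 3.68 (0.0151), Cthrc1 by 3.21 (0.0344) and Tcf21 by 2.71 (0.0457). Leaving out any other single array gave no call of a member in any comparison. Without both arrays that carry lung markers, a choice made after the data were seen, Cthrc1 and Meox1 passed between iCM and saline. Of all genes 2.27% did so, and 0 members passed the other comparisons. This fit kept iCM replicate 2, which carried muscle and fat markers and had Sftpc at 11.02. The differences between iCM-Ex and iCM were then 2.17 for Tcf21, 3.42 for Dpt, 3.32 for Meox1, 3.37 for Cthrc1, 1.35 for Fap and 0.84 for Thy1. With iCM replicates 1 and 2 and iCM-Ex replicate 3 all left out, iCM is 1 array assumed to vary like the others, and no member passed.

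**Figure D4:**
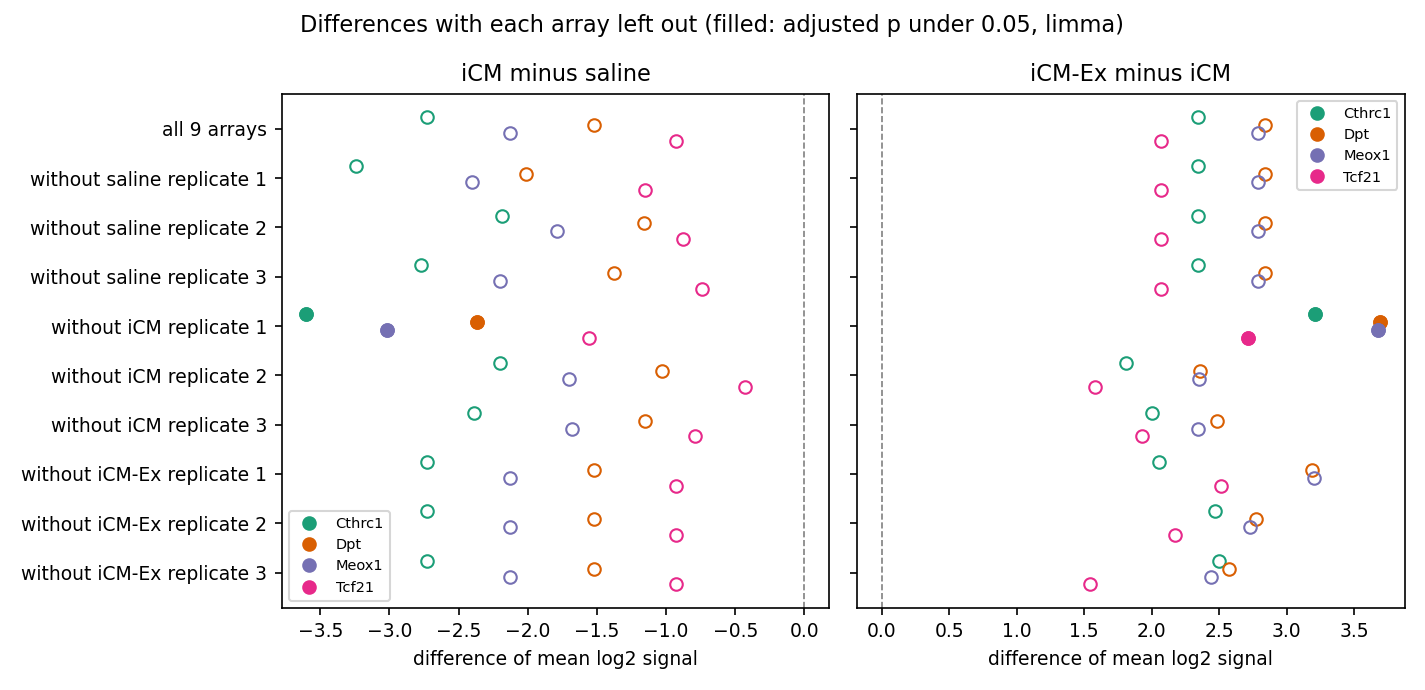
Difference of mean log2 signal (horizontal axis) of Cthrc1, Dpt, Meox1 and Tcf21, for iCM minus saline (left) and iCM-Ex minus iCM (right), in the fit of all 9 arrays and with each array left out; filled points passed a limma adjusted p under 0.05. Filled points occur only in the fits without iCM replicate 1, and in both of these comparisons each difference keeps its sign in all fits shown.

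Control separation, the median positive minus the median negative control signal of an array, was 3.26, 3.48 and 3.56 in saline, 3.21, 2.47 and 3.15 in iCM and 3.63, 4.01 and 3.67 in iCM-Ex. The 2 lowest values were those of iCM replicates 2 and 3, the arrays with the lowest means over the 9 members (8.25 and 8.54, against 9.06 to 10.48 on the others). The values of the 3 groups did not overlap, so control separation and treatment cannot be told apart, here or in the other fits with this covariate. With control separation as a covariate the median difference of the members was -0.40 for iCM against saline and 0.72 for iCM-Ex against iCM, with 0 members called in each. With the covariate the difference of Pi16 between iCM-Ex and iCM changed sign, to -1.63.

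Among themselves, members differed in how alike their profiles were. Likeness was the root mean square difference over the 9 arrays between profiles centred on their own means, in log2 units. Of 36 pairs, Dpt and Meox1 were closest at 0.38, followed by Tcf21 and Dpt at 0.52 and Ddr2 and Fap at 0.61. The pair farthest apart was Meox1 and Wif1 at 1.78, and Cthrc1 and Pi16 differed by 1.46. Over 9525 candidate genes, the 3 profiles nearest to Cthrc1 were those of Myh10 (0.40), which encodes a nonmuscle myosin heavy chain, Map1b (0.46), which encodes a microtubule-associated protein, and Mxra8 (0.46). Myh10 read 9.23, 10.36 and 9.41 in saline, 9.12, 6.05 and 6.63 in iCM and 10.04, 9.94 and 8.72 in iCM-Ex, with the same low pair of iCM arrays.

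Of 21 measured genes of resting fibroblasts, 16 were lower in iCM than in saline (median -1.08) and 16 were higher in iCM-Ex than in iCM (median 1.01), and 0 passed the limma threshold in any comparison. Pcolce, which encodes an enhancer of procollagen processing, was nearest to it, lower in iCM by 3.07 ± 0.74 (SE; limma adjusted p = 0.0501). It passed after median centring (0.0348), among genes brighter than the median (0.0307), with a trended robust prior (0.0375), without iCM replicate 1 (0.0157) and without both arrays with lung markers (0.0335). It read 11.20, 11.84 and 13.15 in saline against 10.62, 7.43 and 8.92 in iCM. Serpinf1, a secreted serpin, was 2.41 ± 0.61 higher in iCM-Ex than in iCM (limma adjusted p = 0.0935). The mean of the list was 13.33 in iCM replicate 1 and 11.88 and 11.78 in replicates 2 and 3, so the split of the iCM group seen in the members was there too.

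Of 19 measured genes of activated fibroblasts and myofibroblasts, 16 were lower in iCM than in saline (median -1.31) and 18 were higher in iCM-Ex than in iCM (median 1.02). Ddah1, which encodes an enzyme that breaks down an inhibitor of nitric oxide synthesis, was the 1 gene of that list past the threshold. It read 10.90, 11.13 and 12.14 in saline, 8.63, 7.19 and 6.53 in iCM and 10.61, 10.63 and 9.74 in iCM-Ex, with no iCM array overlapping either other group. It fell in iCM by 3.94 ± 0.54 (SE; limma adjusted p = 0.00775), and iCM-Ex was higher than iCM by 2.88 ± 0.54 (limma adjusted p = 0.0411). Leaving out 1 array at a time gave limma adjusted p of at most 0.0402 for the fall from saline. The difference from iCM-Ex no longer passed without saline replicate 2, without iCM replicates 2 or 3, or without any 1 of the iCM-Ex arrays (0.0628 to 0.174). When control separation was a covariate the differences were -3.41 (limma adjusted p = 0.123) and 2.0 (0.793). Without the 3 arrays that carry lung, muscle or fat markers they were -4.86 (0.0719) and 4.09 (0.164).

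Late scar fibroblast genes, those of the settled cells called matrifibrocytes, had a median of -1.73 between iCM and saline (8 of 10 lower) and of 2.30 between iCM-Ex and iCM (8 of 10 higher). Clu, a secreted chaperone, fell in iCM by 3.51 ± 0.60 (SE; limma adjusted p = 0.0154). The difference was -2.74 after adding control separation as a covariate (0.211), -3.56 without saline replicate 2 (0.0644) and -2.87 without the 3 arrays with markers of other tissues (0.16). Clu read 18.51, 18.42 and 18.64 in saline and 15.83, 13.56 and 15.66 in iCM, and was the 1 gene of that list past the threshold.

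Wif1 belongs to the secreted Wnt antagonists, of which 10 others were measured. Their median difference was -0.19 for iCM against saline, 0.16 for iCM-Ex against saline and 0.31 for iCM-Ex against iCM, and 0 passed the limma threshold. Sfrp5, Dkk1, Dkk2, Dkk4 and Sost lay below the median negative control probe set on every array, which limits these medians. The frizzled-related genes Sfrp1 and Sfrp2 differed more than Wif1. Sfrp1 read 9.37, 10.84 and 12.51 in saline, 9.89, 6.56 and 8.30 in iCM and 11.44, 13.17 and 12.63 in iCM-Ex, and was 4.17 ± 0.91 higher in iCM-Ex than in iCM (SE; limma adjusted p = 0.0629, and 0.0347 to 0.0491 in the 6 alternative fits in which it passed). Sfrp2 was 3.95 ± 1.2 higher (limma adjusted p = 0.151, and 0.0141 without iCM replicate 1), with 13.43 in iCM replicate 1 and 9.51 and 7.47 in replicates 2 and 3. For both, the iCM-Ex arrays were all above the iCM arrays, which was not so for Wif1.

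The PDGF family was represented by 4 ligand genes and by Pdgfrb, a receptor of mural cells and fibroblasts that the resting list also holds. Of these 5, 0 passed the threshold. Pdgfa, a ligand of the receptor that Pdgfra encodes, was lower in iCM by 2.11 ± 0.63 (SE; limma adjusted p = 0.0918), from 9.47, 10.47 and 10.53 in saline to 9.5, 6.52 and 8.13. It passed without iCM replicate 1 (0.0207) and without both arrays with lung markers (0.0436). Pdgfrb read 10.80, 11.98 and 11.95 in saline and 10.38, 10.68 and 10.11 in iCM-Ex, a difference of -1.19 ± 0.36 without overlap (limma adjusted p = 0.167). In iCM it read 10.85, 10.54 and 10.28, a difference from saline of -1.02 ± 0.36 with overlap (limma adjusted p = 0.146). Between iCM-Ex and iCM the difference was -0.17.

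Marker lists of other cell types were read beside these values. Macrophage genes had a median of -0.28 between iCM and saline and of 2.33 between iCM-Ex and iCM, with 7 of 7 higher in the latter and 0 past the limma threshold. Csf1r, the receptor of macrophage colony-stimulating factor, was 2.8 ± 0.81 higher there (SE; limma adjusted p = 0.135), and the complement gene C1qa 2.33 ± 0.75 higher (0.171). Endothelial genes had a median of -0.32 over 7 in the same comparison, with 5 lower and 2 higher (Emcn by 0.82 and Tek by 0.2). Cdh5, the endothelial cadherin, was 1.2 ± 0.27 lower (SE; limma adjusted p = 0.0629) and Pecam1 0.89 ± 0.30 lower (0.187). Pericyte and smooth muscle genes had a median of 0.82 over 8, of which 5 were higher and 3 lower in iCM-Ex than in iCM. At an unadjusted limma p under 0.05, Kcnj8 (1.14), Cnn1 (2.20) and Acta2 (2.30) were higher there and Cspg4 (-1.40) and Abcc9 (-1.72) lower, and Abcc9 was 2.64 ± 0.66 lower in iCM-Ex than in saline (SE; limma adjusted p = 0.11). Of the 10 cardiomyocyte genes, some lay at or near the top of the arrays' range, such as Nppa at 19.93 on every iCM-Ex array, so no median is read from that list. In it Ttn, the titin gene, was 2.99 ± 0.69 lower in iCM-Ex than in iCM (SE; limma adjusted p = 0.0718), and Actc1 1.66 ± 0.47 lower in iCM than in saline (0.0789). The list did not move as one. In iCM-Ex against iCM 6 genes were higher and 4 lower. At an unadjusted limma p under 0.05, Myh6 (-2.25) and Ryr2 (-2.5) were lower there like Ttn, and Tnni3 (1.91) was higher. In iCM against saline 2 were higher, Myh6 (1.24) among them, and 8 lower. Some genes of these other cell types also passed under alternatives. Ttn passed between iCM-Ex and iCM after quantile normalisation (limma adjusted p = 0.0407) and among genes brighter than the median (0.0411). It also passed without iCM-Ex replicate 1 (0.0284). Cdh5 passed that comparison after quantile normalisation (0.0276) and C1qa without saline replicate 3 (0.0416). Actc1 passed between iCM and saline without iCM replicate 3 (0.0359).

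Epicardial and mesothelial genes, from a layer that shares the lineage of fibroblasts, had medians of 0.05 for iCM against saline, -0.03 for iCM-Ex against saline and -0.06 for iCM-Ex against iCM over 9, with Aldh1a2 1.37 ± 0.51 higher in iCM-Ex than in saline (SE; limma adjusted p = 0.233) and Krt19 0.82 higher in iCM than in saline (0.308). Of 3 measured Schwann cell genes, Cdh19 was 2.08 ± 0.55 higher in iCM-Ex than in saline (SE; limma adjusted p = 0.124) and Sox10 0.70 higher (0.398). Sox10 lay below the median negative control probe set on all arrays but iCM-Ex replicate 1 (5.19). Krt19 did so on all but iCM replicate 1 (5.77), an array with lung markers. The lymphocyte genes Cd3e and Cd3g were at most 0.61 apart between groups. None of these lists, nor those of lung, muscle and fat, had a gene past the limma threshold. Medians between iCM and saline were 2.65 over the lung, 2.84 over the muscle and 1.71 over the fat markers. The differences of Sftpd (1.95), Lamp3 (3.19), Actn3 (1.48), Tnnt3 (3.95), Cidec (2.02) and Adipoq (3.19) between iCM and saline came with limma adjusted p of 0.176, 0.274, 0.185, 0.208, 0.247 and 0.318. The part of these tissues in the members' values was not tested.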

How the data were processed

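Log2 signals for each Clariom S probe set are the authors' deposited values, produced in Affymetrix Expression Console from 5.5 µg of cDNA per sample, per the labels' protocols and the submitters' processing notes, which name no version or normalisation. Of 28846 rows, 6640 were controls and 19572 had 1 symbol in the platform annotation, giving 19505 genes (brightest row for 55 with several). No further normalisation was applied. All 9 arrays entered a limma 3.58.1 fit (R 4.3.3) with empirical Bayes moderation, two-sided, with Benjamini-Hochberg adjustment over 19505 genes in each of 3 comparisons and a threshold of 0.05. P-values measure the spread between these arrays, whose number limits the precision. The members and lists were chosen with earlier results of these data known. Some lists share genes, so their counts are not separate. Pdgfrb is in the resting fibroblast and PDGF lists, and Sfrp2 in the activated fibroblast and Wnt antagonist lists. Acta2 and Tagln are in the activated fibroblast list and in that of pericytes and smooth muscle. Of each list the genes past the threshold were named (at most 4), or else the 2 with the smallest p. Profiles were set against Cthrc1 among genes brighter than the median gene, without predicted genes. Alternatives were quantile normalisation, median centring, a filter on dim genes, the mean of a gene's rows, 2-group fits, a replicate block, control separation as a covariate, a trended robust prior and leaving out arrays.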

Additional observations from a re-analysis of the deposited data

How the results depend on the processing

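Of 513 member differences recomputed under the alternatives, 490 kept their direction and their side of the threshold, 11 passed it newly and 12 changed sign. Of 544 differences of list genes, 505 were kept, 20 passed newly, 16 no longer passed and 3 changed sign. With the signals as deposited, 0 members were called in each comparison. With all 9 arrays, centring on the median gene and the filter on dim genes each called 1 (Cthrc1, iCM minus saline), and leaving out both arrays with lung markers, an alternative chosen after seeing the data, called 2. Leaving out 1 array gave 0 to 3 members for iCM minus saline, 0 for iCM-Ex minus saline and 0 to 4 for iCM-Ex minus iCM.

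Over all genes 716, 68 and 208 were called in that order. Fits of only the 2 groups compared called 279, 1 and 13, control separation as a covariate 33, 5 and 0, leaving out the 3 arrays with markers of other tissues 6, 0 and 0, and leaving out both lung arrays 443, 0 and 15. The trended robust prior called 17 for iCM-Ex minus saline, and centring and the filter on dim genes called 327 and 352 for iCM-Ex minus iCM. Leaving out 1 array gave 126 to 803, 0 to 163 and 0 to 401. The cause of these shifts was not tested. Fits with arrays left out, and those of only the groups compared, also had fewer arrays.

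Signs changed for Wif1 (0 after centring, iCM-Ex minus iCM), with the covariate for Tnnt3 (-0.05) and Adipoq (-0.42) in iCM minus saline and for Pi16 (-1.63) in iCM-Ex minus iCM, without the 3 arrays for Adipoq (-0.95) and without both lung arrays for Pi16 (-0.14, iCM minus saline). Leaving out 1 array moved Pi16 from -0.22 to 1.19 and Wif1 from -0.13 to 0.82 in iCM minus saline, Fap from -0.04 to 0.66 and Cthrc1 from -0.90 to 0.16 in iCM-Ex minus saline, and Ddr2 from -0.09 to 0.49 and Wif1 from -0.38 to 0.58 in iCM-Ex minus iCM.

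Same-numbered arrays of different groups deviated from their group means with correlations of -0.26 to 0.07 across genes, and arrays with unlike numbers with -0.16 to 0.25. With 3 arrays in each group these values cannot decide whether the replicate numbers pair the samples. With the replicate block 338, 0 and 18 genes and 0 members were called. Under the block the difference of Ddah1 between iCM-Ex and iCM had a limma adjusted p of 0.0857.

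Thy1, Wif1 and, on 2 iCM arrays, Meox1 and Cthrc1 lay near the negative controls, which limits their differences.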

Other observations

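Within-array differences between members remove whatever scales all genes of an array alike. They were computed for the 36 pairs of members after the values were seen, and are given without a test. The 3 groups were apart from each other in all comparisons for 1 pair, Cthrc1 minus Pi16. The difference was -1.53, -0.85 and -3.03 on the saline arrays, -3.38, -3.68 and -3.44 on the iCM-Ex arrays and -4.37, -4.50 and -6.03 on the iCM arrays. Cthrc1 was thus lowest relative to Pi16 on the iCM arrays and highest on the saline arrays. This pair was picked because its groups did not overlap, so the place of iCM replicate 1 with its group follows from that choice. On iCM replicates 2 and 3 Cthrc1 lay near background, with 34.7% and 21.7% of the negative control probe sets at least as bright. On iCM replicate 1, which carried lung markers, Pi16 read 13.49 and Cthrc1 9.12. Groups were apart in 11 pairs for iCM against saline, in 10 for iCM-Ex against saline and in 7 for iCM-Ex against iCM, and 17 pairs were apart in no comparison. The share of pairs of other genes that were apart was not computed, so these counts are not a result about the members. Of all single genes, 13.8% were higher and 10.2% lower without overlap in iCM against saline. These shares were 12.2% and 9.53% for iCM-Ex against saline, and 10.2% and 10% for iCM-Ex against iCM.

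Ddr2 minus Fap was 1.45, 1.39 and 1.57 in saline, 1.65, 0.93 and 0.89 in iCM and 0.61, -0.17 and 0.15 in iCM-Ex, so that the iCM-Ex arrays lay below all others. Dpt minus Meox1 varied least, from 8.54 to 9.77 over the 9 arrays, with each saline array below each treated one.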
